A study of Mus musculus with 6 samples.

Results

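The colony-stimulating factor genes of the mouse, 3 ligands and 5 receptor chains, were followed through the first hour of an LPS response in bone marrow-derived macrophages. The ligand genes are Csf1 (M-CSF), Csf2 (GM-CSF) and Csf3 (G-CSF), and the receptor genes are Csf1r, Csf2ra, Csf2rb, Csf2rb2 and Csf3r. The members were taken by gene symbol from the deposited count table, and 8 of 8 were found among its 55335 rows. All 8 were among the 15687 genes that passed the low-count filter, although Csf2 and Csf3 passed only through the LPS libraries. The study compared cultured macrophages of wild-type C57BL/6 mice that had received LPS, a cell wall component of Gram-negative bacteria, for 1 h with macrophages that had received PBS. Each group held 3 libraries, numbered and batched 1 to 3 in both groups, and a dose for this LPS treatment is not given in the sources used here. The cells of both groups had been grown from bone marrow in medium conditioned by L929 cells, a mouse fibroblast line that secretes M-CSF, so both groups carried that ligand from outside. Nothing in the labels says that the libraries came from separate animals or cultures, and the p-values below measure only the spread between these libraries.

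Colony-stimulating factors are secreted proteins that keep myeloid cells alive, make their precursors divide and steer their maturation. M-CSF acts through Csf1r, a receptor tyrosine kinase on which macrophages depend. GM-CSF binds the alpha chain Csf2ra, which signals together with the common beta chain Csf2rb, a chain also shared by the receptors of IL-3 and IL-5. The mouse has a further beta chain, Csf2rb2, whose known partner is the IL-3 receptor alpha chain. G-CSF acts through Csf3r and drives neutrophil production. The beta chains and Csf3r have no kinase activity of their own and signal through JAK kinases and STAT factors.

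Each library held 37787611 to 41516330 counts. TMM scaling factors were 1.15 for the controls and 0.864 to 0.872 for the LPS libraries. Dividing by library size alone moved the median log2 fold change of all tested genes by -0.40 and upper-quartile scaling moved it by -0.14, so each receptor value below is given with its value under those scalings. Summed levels of 8 macrophage markers ran from 27544 to 28718 CPM, counts scaled to a fixed library total, in the control libraries and from 32734 to 33200 CPM in the LPS libraries, with TMM scaling. Lyz2 made up most of each sum (means of 23272 and 24224 CPM), and Cd14 went from 398 to 3623 CPM. The median log2 fold change of the 8 markers was 0.21 with TMM scaling and -0.20 with library size alone. Fcgr1 was lower after LPS, at -0.48 with TMM scaling. Sums for other cell types lay below the macrophage sums and differed widely, up to 211 CPM for 6 endothelial genes and 62.3 CPM for 9 neutrophil and precursor genes. For 8 fibroblast genes the sums ran from 14.2 to 15.1 CPM in the control libraries and from 15.8 to 18.0 CPM after LPS. For T cells and NK cells the highest sum in any library was 1.47 CPM, and for B cells it was 3.64 CPM. In bulk RNA, fewer cells of a type and less RNA per cell cannot be told apart.

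All 3 ligand genes rose after LPS and no receptor gene changed by as much as 2-fold. A gene was called when its Benjamini-Hochberg adjusted p from edgeR was under 0.05 and its log2 fold change was beyond 1 in either direction. By that rule 3 of 8 members were called up, all of them ligands, where 10.5% of all tested genes were called up. No member was called down, where 10.4% of all tested genes were, and DESeq2 and limma voom also called 0, with 0 members lower at an unadjusted p under 0.05 by any of these tools. With the adjusted p alone, 8 of 8 members were higher after LPS by edgeR with TMM scaling, against 32.9% of all tested genes higher and 34.9% lower. Csf2 and Csf3 had to differ between the groups to pass the filter at all, so they carry no weight in these counts. With library size alone as the scaling, 5 members were higher (the 3 ligands, Csf2rb and Csf2rb2) and 1 was lower (Csf3r), against 15.0% of tested genes higher and 65.9% lower.

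Csf1, the gene of M-CSF, was the only ligand gene with reads in every control library. Its gene (ENSMUSG00000014599.10) lies on the minus strand at chr3:107741048-107760469 in GRCm38. The control libraries held 375, 347 and 356 Csf1 counts and the LPS libraries 2728, 2607 and 2645. All LPS libraries lay far above all control libraries. After TMM scaling the level went from 7.76 ± 0.104 CPM to 79.6 ± 1.80 CPM (SD, n = 3 per group), a 10.3-fold rise. The log2 fold change was 3.36 (SE 0.05, adjusted p = 2.17e-20), above that of 97.4% of tested genes.

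Csf2, the gene of GM-CSF, was close to silent without LPS. It is a compact gene (ENSMUSG00000018916.5) on the minus strand at chr11:54247271-54249667, with 800 bp of merged exon sequence. The control libraries held 0, 1 and 1 Csf2 counts and the LPS libraries 672, 684 and 677. Over the groups that is 2 counts against 2033, a ratio of 1409 with TMM scaling (exact 95% counting interval 390 to 11642) and of 1065 with library size alone (294 to 8796), where the intervals cover counting error only. The LPS level was 20.3 ± 0.580 CPM (SD, n = 3), and its 3 values differed from each other by far less than from the controls. Since Csf2 passed the low-count filter only through the LPS libraries, its test could hardly have failed and is not used as support, and its fitted log2 value depends on the prior count used for the near-empty controls.

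Csf3, the gene of G-CSF, had no count in any control library. It lies on the plus strand at chr11:98701263-98703629 (ENSMUSG00000038067.2). The LPS libraries held 713, 673 and 683 Csf3 counts, a level of 20.6 ± 0.589 CPM (SD, n = 3). Against a floor of 3 counts per library, which stands at 0.0648 CPM in the controls, the mean LPS level was at least 318.5-fold higher, and at least 240.6-fold higher without TMM scaling. As for Csf2, the filter let Csf3 through only by its LPS libraries, and its test is not used as support. Csf2 and Csf3 thus reached nearly the same number of reads from an empty or near-empty start, while Csf1 rose from a measurable base.

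**Figure D1:**
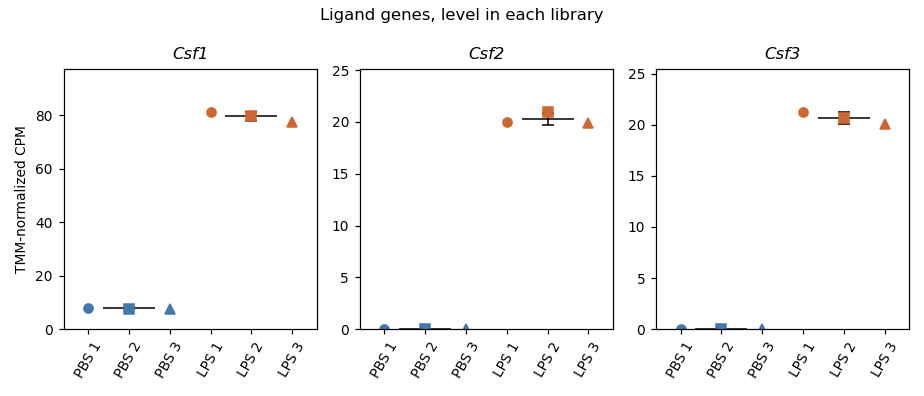
Levels of Csf1, Csf2 and Csf3 in CPM with TMM scaling (vertical axes) in the 3 control and 3 LPS libraries, each point a library (circle, square and triangle for replicates 1, 2 and 3), with the mean and SD of each group. Csf1 stood at 7.76 CPM in the control libraries and 79.6 CPM after LPS, while Csf2 and Csf3 went from 2 and 0 counts in all controls together to about 20 CPM.

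The 3 ligand mRNAs are textbook examples of unstable messages that carry AU-rich elements in the 3′ untranslated region (3′UTR), where ATTTA is the core pentamer and TTATTTATT the stricter nonamer. For each gene only the longest complete protein-coding transcript with a 3′UTR in GENCODE M21 was searched. Stretches of 30 bases are shown because all 3 ligand transcripts searched held such pentamers and 4 of 5 receptor transcripts searched held none. Pentamers are in capitals, with overlapping pentamers run together:
Csf1 (chr3:107741109-107741138, minus strand, exon 9): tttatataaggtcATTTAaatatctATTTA
Csf2 (chr11:54247329-54247358, minus strand, exon 4): tttttaaatATTTATTTATTTATTTATTTA
Csf3 (chr11:98702984-98703013, plus strand, exon 5): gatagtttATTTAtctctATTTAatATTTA

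The Csf2 3′UTR of 317 bp held 9 pentamers, overlaps counted, and 4 nonamers. The Csf3 3′UTR of 669 bp held 6 pentamers and the Csf1 3′UTR of 2111 bp held 4, with 0 nonamers in either. Among receptors, Csf1r held 3 pentamers in 1669 bp, and Csf2ra, Csf2rb, Csf2rb2 and Csf3r held 0. Of 12062 tested genes with an annotated 3′UTR, 7.92% held a nonamer, 29.4% held at least 4 pentamers, 17.4% at least 6 and 8.66% at least 9. At least 1 pentamer was held by 69.4% of these genes, so holding a pentamer does not mark out the ligands. These matches describe the letters of the transcripts, and message stability was not measured.

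RefSeq promoter windows of 300 bases (250 before the annotated start, 50 after, build GRCm38.p6) were at hand for 5 of the 8 genes, Csf1, Csf2, Csf2ra, Csf2rb2 and Csf3r. The windows were searched on both strands for 7 motifs, namely the NF-kB consensus, AP-1 (TGANTCA), CRE (TGACGTCA), C/EBP (TTNNGCAA), PU.1 (GAGGAA), the TATA box (TATAAA) and GAGATTCC. An NF-kB consensus match stood in the windows of Csf1 and Csf3r, a ligand that was called and a receptor that was not. Of 32851 windows in the RefSeq table, 8.46% held such a match. The 80 bases from 190 to 111 before the RefSeq start are shown for both, with the match in capitals on the gene's strand:
Csf1 (chr3:107760580-107760659, minus strand): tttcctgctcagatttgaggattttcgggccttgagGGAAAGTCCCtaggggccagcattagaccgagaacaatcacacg
Csf3r (chr4:126024469-126024548, plus strand): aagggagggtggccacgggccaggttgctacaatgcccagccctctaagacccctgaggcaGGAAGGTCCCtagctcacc

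The Csf1 match lay 154 to 145 bases before the start, and the Csf3r match lay 129 to 120 bases before the RefSeq start, which is 109 bp downstream of the GENCODE start. The PU.1 letters, found in 28.3% of all windows, stood in the windows of the receptor genes Csf2ra, Csf2rb2 and Csf3r. They were absent from the ligand windows searched, those of Csf1 and Csf2, which are too few to set ligands against receptors. The CRE letters, found in 1.79% of all windows, stood in that of Csf2ra. The Csf2 window had only the C/EBP letters (10.8% of all windows), and the RefSeq start that placed it is 232 bp upstream of the GENCODE start. No match in these windows says nothing about a factor.

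Csf1r, the M-CSF receptor, was by far the most abundant member and changed little. The gene (ENSMUSG00000024621.16) lies on the plus strand at chr18:61100598-61132149. The control libraries held 159063, 147476 and 146856 Csf1r counts and the LPS libraries 138156, 138879 and 140126. With TMM scaling its level was 3263 ± 78.9 CPM in the control libraries and 4163 ± 79.7 CPM after LPS (SD, n = 3 per group), and the groups did not overlap. The log2 fold change was 0.35 with TMM scaling (SE 0.03, adjusted p = 1.39e-08), 0.21 with upper-quartile scaling and -0.05 with library size alone (adjusted p = 0.103), so the sign of the change depended on the scaling. Without TMM scaling the levels were 3752 ± 85.8 CPM and 3616 ± 51.3 CPM. Of the 5719 words of 1 read length in Csf1r transcripts, 13.5% also occur on the opposite strand in the transcripts of Hmgxb3, which shares 873 exon bases with Csf1r and had a log2 fold change of -0.25 (adjusted p = 2.19e-04).

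Csf2ra, the GM-CSF-binding alpha chain, varied more between libraries of a group than the other receptor genes. It lies on the minus strand at chr19:61223957-61228429 (ENSMUSG00000059326.7). The control libraries held 4480, 4869 and 4272 Csf2ra counts and the LPS libraries 4206, 4762 and 4376. With TMM scaling its level was 98.1 ± 8.37 CPM without LPS and 133 ± 11.1 CPM with LPS (SD, n = 3 per group), and the replicate 2 library was the highest in both groups. The log2 fold change was 0.44 with TMM scaling (SE 0.06, adjusted p = 2.12e-06), 0.30 with upper-quartile scaling and 0.04 with library size alone (adjusted p = 0.567), so that its call at the adjusted p depended on the scaling.

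Csf2rb and Csf2rb2, the beta chains, moved together and were the only receptor genes past the adjusted p, and higher after LPS, under each of the 4 scalings tried. They lie side by side and in opposite directions on chromosome 15, Csf2rb2 (ENSMUSG00000071714.7) on the minus strand at chr15:78282507-78305721 and Csf2rb (ENSMUSG00000071713.6) on the plus strand at chr15:78325752-78353847, with 20030 bp between them. Csf2rb counts were 13150, 11953 and 12342 without LPS and 14385, 14166 and 15044 with LPS. Its level was 269 ± 6.03 CPM without LPS and 435 ± 6.74 CPM with LPS (SD, n = 3 per group, TMM scaling). The Csf2rb log2 fold change was 0.69 (SE 0.03, adjusted p = 1.81e-12), 0.55 with upper-quartile scaling and 0.29 with library size alone (adjusted p = 2.81e-07). The groups did not overlap in either the raw or the scaled values. For Csf2rb2 the counts were 9530, 8572 and 8965 without LPS and 10276, 10320 and 11028 with LPS. Its level was 195 ± 5.22 CPM without LPS and 315 ± 8.93 CPM with LPS, a log2 fold change of 0.70 (SE 0.03, adjusted p = 3.27e-12), 0.55 with upper-quartile scaling and 0.29 with library size alone (adjusted p = 4.43e-07).

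Because these genes are near-copies, reads could in principle be split between them. Their coding sequences of 2688 bp (Csf2rb) and 2634 bp (Csf2rb2) were identical at 2503 of 2628 aligned bases (95.2%), with a longest identical run of 242 bases. The 60 coding bases from position 24 to 83 are shown to make the spacing of differences visible, with the 3 differing bases in capitals:
Csf2rb: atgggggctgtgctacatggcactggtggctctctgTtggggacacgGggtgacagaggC
Csf2rb2: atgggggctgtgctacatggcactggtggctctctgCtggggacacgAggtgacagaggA

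Of the read-length words in Csf2rb transcripts, 329 of 7217 (4.56%) also occurred in Csf2rb2, which is 6.72% of the words of Csf2rb2. Most read-length words thus told the copies apart, but how the authors' counting treated reads that align to both is not given in the sources used here, and the level of either gene carries that uncertainty.

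Csf3r, the G-CSF receptor, had the smallest log2 fold change of the members with TMM scaling. The gene (ENSMUSG00000028859.14) lies on the plus strand at chr4:126024550-126044440. Csf3r counts were 5347, 4876 and 5212 without LPS and 4262, 4138 and 4311 with LPS. With TMM scaling its level was 111 ± 2.73 CPM without LPS and 127 ± 0.168 CPM with LPS (SD, n = 3 per group). The log2 fold change was 0.19 with TMM scaling (SE 0.03, adjusted p = 5.76e-05), 0.05 with upper-quartile scaling (adjusted p = 0.198) and -0.21 with library size alone (adjusted p = 1.23e-05), so its direction was not fixed by these data. Csf3r is also expressed in neutrophils, and 9 neutrophil and precursor genes summed to 44.3 to 47.4 CPM in the control libraries and 57.9 to 62.3 CPM after LPS with TMM scaling. Of the 8 that were tested, 4 had an adjusted p under 0.05 and were higher, where 32.9% of all tested genes were. Among the 4 were S100a8 (log2 fold change 0.40) and Ngp (0.61), and 0 passed the fold criterion. Mpo, Elane, Camp and Retnlg did not pass the adjusted p. The median log2 fold change of these markers was 0.33 with TMM scaling and -0.07 with library size alone. Library size alone moved the median of all tested genes by -0.40, so rises this small turn sign whatever the gene. Ly6g, a neutrophil surface marker, had at most 3 counts in a library, and the part of neutrophils in the Csf3r value was not tested.

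The receptor genes were also set against the median of all tested genes, which takes out the scaling by construction. The difference between a receptor's log2 fold change and that median was 0.36 for Csf1r, 0.45 for Csf2ra, 0.70 for Csf2rb, 0.71 for Csf2rb2 and 0.20 for Csf3r, with TMM scaling. The beta chains thus stood farthest above the typical gene and Csf3r closest to it, and since another scaling shifts all genes alike, this order is no independent check of it.

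**Figure D2:**
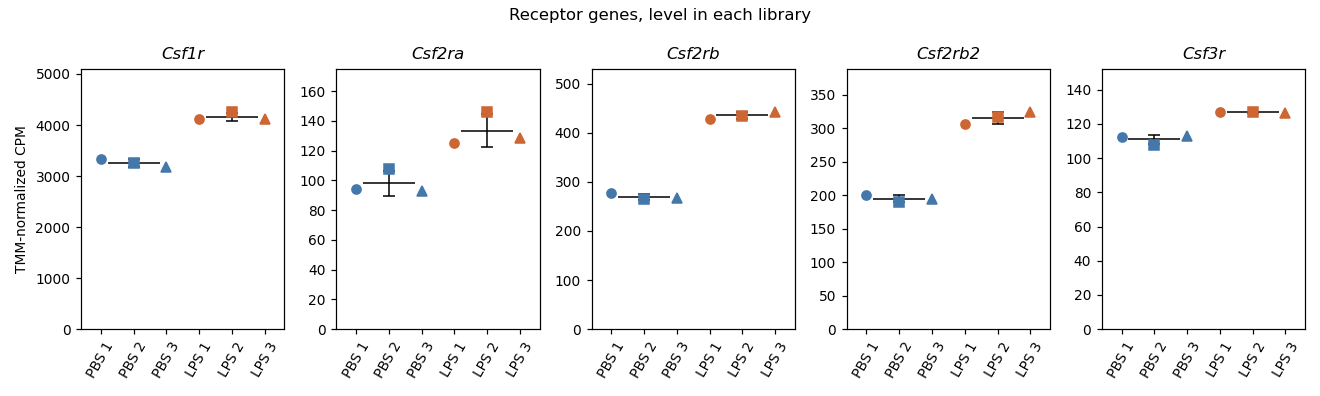
Levels of the 5 receptor genes in CPM with TMM scaling (vertical axes, 1 panel per gene) in the 3 control and 3 LPS libraries, each point a library (shapes mark the replicate number), with the mean and SD of each group. The LPS means are higher in each panel under this scaling (Csf2rb from 269 to 435 CPM), but for Csf1r and Csf3r the sign turned with library size alone.

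**Figure D3:**
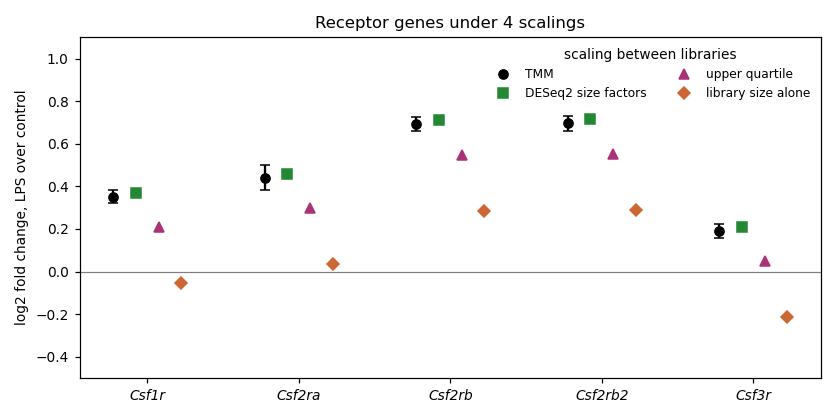
Log2 fold change, LPS minus control, of the 5 receptor genes under TMM, DESeq2 size factors, upper-quartile scaling and library size alone, with the SE of the TMM value as a bar. Csf2rb and Csf2rb2 stayed above 0 under all of them (0.29 at the lowest), whereas Csf1r and Csf3r fell below 0 with library size alone (-0.05 and -0.21).

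Ratios between members within a library need no scaling between libraries, and 3 were compared by exact permutation of the 6 libraries (20 assignments, two-sided, smallest possible p 0.1). The ratio of Csf1 to Csf1r counts per kilobase was 0.00258, 0.00257 and 0.00265 without LPS and 0.0216, 0.0205 and 0.0206 with LPS. By the group means of the log2 ratio it was 8.04-fold higher after LPS. Each LPS library lay above each control library (exact permutation p = 0.1, the smallest possible).

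The ratio of Csf2rb to Csf2rb2 was 0.899, 0.908 and 0.897 without LPS and 0.912, 0.894 and 0.889 with LPS. The groups overlapped, and the log2 difference was -0.0050 (exact permutation p = 0.7). The ratio of Csf2ra to Csf2rb was 0.864, 1.03 and 0.877 without LPS and 0.741, 0.852 and 0.737 with LPS. Each LPS library lay below each control library, a log2 difference of -0.25 (exact permutation p = 0.1, the smallest possible). Adjusted over the 3 ratios the p-values were 0.15, 0.7 and 0.15, and none could have passed 0.05 with 3 libraries per group.

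**Figure D4:**
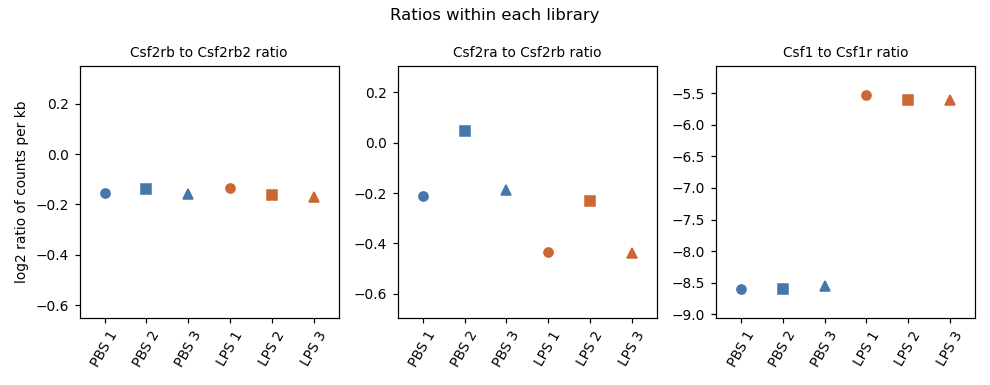
Within-library ratios of counts per kilobase (log2 axis) for Csf1 to Csf1r, Csf2ra to Csf2rb and Csf2rb to Csf2rb2, each point a library of the control or LPS group. Csf1 to Csf1r was 8.04-fold higher after LPS, Csf2ra to Csf2rb was lower by 0.25 on the log2 scale, and the Csf2rb to Csf2rb2 values of the groups overlap.

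Per kilobase of merged exon, the scale on which levels of different genes can be set side by side, the receptors led in both groups. In the control libraries the order by mean level was Csf1r at 565 ± 13.7 CPM per kb, Csf2rb2 at 41.1 ± 1.1, Csf2rb at 37.0 ± 0.829, Csf2ra at 34.2 ± 2.91, Csf3r at 30.8 ± 0.758 and Csf1 at 1.47 ± 0.0197, with Csf2 at 0.0183 and Csf3 at 0 (SD, n = 3). Only Csf2rb and Csf2ra overlapped among neighbours with reads in each library. After LPS the order was Csf1r at 721 ± 13.8 CPM per kb, Csf2rb2 at 66.6 ± 1.88, Csf2rb at 59.8 ± 0.926, Csf2ra at 46.4 ± 3.85, Csf3r at 35.1 ± 0.0467, Csf2 at 25.4 ± 0.725, Csf1 at 15.1 ± 0.341 and Csf3 at 14.6 ± 0.417. Csf1 and Csf3 overlapped, and no other neighbours did. Csf2 thus moved from a level above 0.964% of tested genes to one above 88.45%, and passed Csf1, while Csf1 moved from 35.3% to 81.3% and Csf1r stayed above 99.6% of tested genes in both groups. The order among Csf2rb2, Csf2rb and Csf2ra rested on the length used: with the longest annotated transcript in place of merged exons, Csf2rb came second in both groups.

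**Figure D5:**
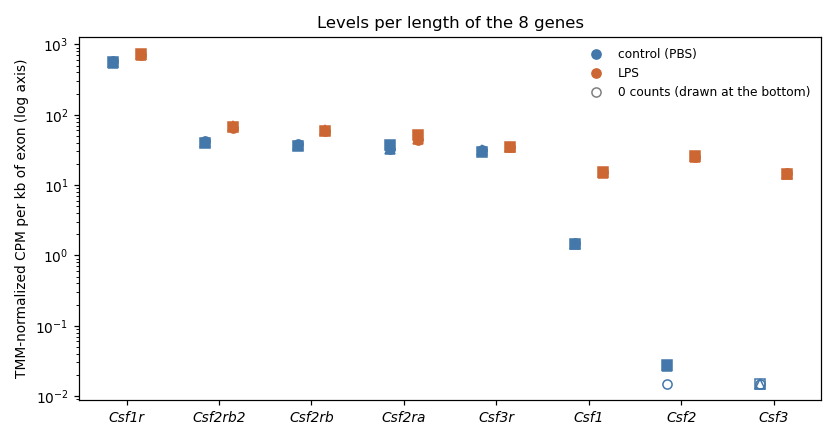
Levels of the 8 genes in CPM per kilobase of merged exon with TMM scaling (log axis), each point a library of the control or LPS group and open symbols at the bottom for libraries with 0 counts. Csf1r led both groups (565 and 721 CPM per kb), and the 3 ligand genes rose toward but not to the other receptor chains.

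Of 5 related cytokine and receptor genes, only Il3ra had enough counts to be tested. Il3, which lies 15635 bp from Csf2 and encodes a further ligand whose receptor uses the beta chains, had 0 counts in every library, as did Il5. Il34, the other known ligand of Csf1r, had at most 3 counts in a library, and Il5ra held 1, 0 and 5 counts without LPS and 6, 12 and 5 with LPS, too few to be tested. Il3ra, the IL-3 receptor alpha chain, held 1812, 2035 and 1648 counts without LPS and 1691, 1666 and 1485 with LPS. Its log2 fold change was 0.29 with TMM scaling (SE 0.07, adjusted p = 0.00176) and -0.12 with library size alone, so its direction turned with the scaling.

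The neighbours of ligand genes on the chromosome that could be tested were Ahcyl1, P4ha2, Psmd3 and Med24, and none was called. Of all tested genes 10.5% were called up and 10.4% down, so these few genes do not mark out the neighbours. Next to Csf3, the proteasome subunit gene Psmd3 at 5283 bp had a log2 fold change of 0.06 (adjusted p = 0.359), and Med24 at 961 bp one of -0.09 (adjusted p = 0.113). Beside Csf2, P4ha2 at 115605 bp stood at 0.38 (adjusted p = 0.0116), or -0.03 with library size alone. Beside Csf1, Ahcyl1 at 44487 bp stood at 0.17 (adjusted p = 3.16e-04), or -0.24 with library size alone, and Eps8l3 had at most 1 count. These values lay far below the ligands' own. The antisense gene Gm12223, which shares 96 exon bases with Csf2, held 0 counts in all control libraries and 1, 0 and 3 after LPS. Whether the authors counted by strand is not given in the sources used here, so reads of Csf2 and Gm12223 cannot be told apart in their shared bases.

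Among neighbours of receptor genes, Pdgfrb, a receptor tyrosine kinase gene 15536 bp from Csf1r, was called up. It held 68, 53 and 62 counts without LPS and 114, 116 and 98 with LPS, a log2 fold change of 1.31 (SE 0.15, adjusted p = 3.01e-07), or 0.91 with library size alone, below the fold criterion. Ncf4, a NADPH oxidase subunit gene 19926 bp from Csf2rb2, stood at 0.33 (adjusted p = 4.42e-07), or -0.07 with library size alone, less than the 0.70 of Csf2rb2. Mrps15, 2484 bp from Csf3r, stood at -0.06 (adjusted p = 0.423).

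In the signalling route below the receptors, 9 of 33 listed genes were called up (against 10.5% of all tested genes) and 0 down, with a median log2 fold change of 0.31 against -0.01 over all tested genes. With library size alone 7 were called and the median was -0.10. Socs3, an inhibitor that acts on receptors including that of G-CSF, went from 10.3 ± 0.793 CPM to 1863 ± 65.9 CPM (log2 fold change 7.49). Cish, a STAT5 target and inhibitor, held 28, 27 and 18 counts without LPS and 1636, 1582 and 1658 with LPS (6.52). The kinase genes Pim1 (3.58), Jak2 (3.31), the inhibitor gene Socs1 (3.16) and the kinase gene Src (2.47) followed on the same log2 scale. Jak2, the kinase that the beta chains use, went from 56.7 ± 1.13 CPM to 561 ± 7.74 CPM. The part of a colony-stimulating factor in these rises was not tested.

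Of 19 listed transcription regulators of macrophage and colony-stimulating factor genes, 13 were called up and 1 down. Of all tested genes 10.5% and 10.4% were. The list was chosen with earlier results of these data known, so these counts are not used as support. The median log2 fold change was 2.49, against -0.01 over all tested genes. With library size alone the median was 2.08, and 12 were called up and 2 down. The largest were Fosl2 (5.01), Rel (4.13), Junb (4.0), Ets2 (3.99), Egr1 (3.79) and Myc (3.58), and Rel is an NF-kB subunit known to act on Csf2. Cebpa, a myeloid factor known to act on the Csf3r and Csf1r promoters, was the 1 called down, at -1.0, the very edge of the criterion. Irf8, a macrophage lineage factor, stood at -0.80 and at -1.20 with library size alone, where it was called too. Spi1, which encodes PU.1 and acts on Csf1r and the GM-CSF receptor genes, was at 0.13 with TMM scaling (adjusted p = 0.00450) and at -0.28 with library size alone, so it had no fixed direction.

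Of 15 factors that bind or destroy AU-rich and related messages, 4 were called up and 1 down, against 10.5% and 10.4% of all tested genes. The median was 0.24, or -0.16 with library size alone. Zfp36, which encodes tristetraprolin and binds the nonamer, held 2597, 2675 and 2701 counts without LPS and 37015, 35882 and 37322 with LPS (log2 fold change 4.26). Zc3h12c (4.23), Zc3h12a (3.59), the RNase gene also known as Regnase-1, and Zfp36l1 (1.70) were the others called up. Tia1 fell by 1.14 on the log2 scale, and Rc3h1 stood at 0.72. Tristetraprolin is known to shorten the life of the Csf2 message, and both messages were far higher in all 3 LPS libraries than in any control library.

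Of 12 genes of receptor shedding and turnover, 1 was called up and 0 down, where 10.5% and 10.4% of all tested genes were. These counts do not mark out the list. With library size alone 1 was called up too, and the median was 0.23 with TMM scaling and -0.17 with library size alone. The gene called up was Rhbdf2 (log2 fold change 1.70), which encodes a partner of the protease ADAM17. Adam17 itself, the protease that cuts CSF1R from the macrophage surface, went from 429 ± 2.99 CPM to 604 ± 1.58 CPM (0.49), but stood at 0.09 with library size alone. Timp3 (0.90), Rab7 (0.75), Rhbdf1 (0.34) and Adam10 (0.26) stood below Rhbdf2 on the same scale, and Rhbdf1 and Adam10 turned to -0.06 and -0.14 with library size alone.

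Profiles like those of the members were sought by the root mean square difference between centred log2 CPM values over the 6 libraries, a measure in which the groups share the same split. For Csf2 the most alike was Lif, a cytokine gene (difference 0.124), and for Csf3 it was Tnfsf9, also a cytokine gene (0.126). The gene Gem was the second for both (0.265 and 0.143), and no gene came within 0.1 of either. The prior count of 2 narrows such differences where controls are empty or near-empty, as for Csf2 and Csf3. Fitted log2 fold changes, which also depend on a prior count, were 8.57 for Lif and 10.2 for Csf2. They were 8.95 for Tnfsf9 and 12.7 for Csf3. For Csf1 the most alike were Frmd6 (0.0267) and Itga5 (0.0268), the fibronectin receptor alpha chain, with 25 genes within 0.1. The receptor profiles were common ones, with 1626 genes within 0.1 of Csf1r, closest Ankrd50 and Dop1b, and 2672 within 0.1 of Csf3r, among the closest Cep135. Gcsh was among the nearest for both Csf2rb (0.0156) and Csf2rb2 (0.0195), with Tpm4 (0.0159) and Nedd4l (0.0186) beside it. For Csf2ra the nearest were Crlf2 (0.0344) and Hp (0.0349).

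Markers of other cell types were set beside the ligand genes, which cells other than macrophages also make. Summed levels of 6 dendritic cell genes ran from 5.05 to 6.42 CPM in the control libraries and from 13.0 to 13.4 CPM after LPS with TMM scaling. Of these genes 4 of 6 were called up, against 10.5% of all tested genes, and 3 with library size alone, and Xcr1 (2, 1 and 2 counts without LPS, 27, 17 and 15 with LPS), 1 of the 4, passed the low-count filter only through its LPS libraries. Sums of 6 mast cell and basophil genes ran from 1.11 to 1.24 CPM and from 1.73 to 2.18 CPM. In that list 3 genes were tested and 0 were called. Cpa3 had a log2 fold change of 0.90 (adjusted p = 0.0152), or 0.49 with library size alone. Mcpt8 had one of 0.97 (adjusted p = 0.00400), or 0.56 with library size alone. Ms4a2 went the other way, at -0.22 (adjusted p = 0.576), or -0.62 with library size alone. Counts were low, with means of 20.3, 24.2 and 12.7 per library for Cpa3, Mcpt8 and Ms4a2. Mcpt4 and Tpsb2 were at 0 in every library. Sums of 6 endothelial genes ran from 152 to 159 CPM and from 203 to 211 CPM, most of it from Vwf and Kdr. Of the 5 endothelial genes tested, 1 was called up (Cdh5), against 10.5% of all tested genes. The median log2 fold change of the endothelial genes was 0.44 with TMM scaling and 0.04 with library size alone. The part of these cells in the ligand values was not tested.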

How the data were processed

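Total RNA of 6 libraries was sequenced after a stranded total RNA library kit with globin depletion, in paired reads. Per the labels and the study's methods, the authors aligned reads with HISAT2 2.1.0 to GRCm38 and counted them per gene with featureCounts 2.0.0, and the deposited values are raw counts. The annotation release, the strand setting and the treatment of multiply aligned reads are not given in the sources used here. Of 55335 row identifiers, 54587 were identical to GENCODE M21, which supplied positions and lengths.

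Genes were filtered with filterByExpr, scaled by TMM and tested with edgeR 4.0.16 quasi-likelihood F tests (R 4.3.3) between 3 LPS and 3 control libraries, with Benjamini-Hochberg adjustment over 15687 genes, after a check on simulated data. Alternatives used DESeq2 1.42.0, limma 3.58.1 (voom), other scalings, filters and a replicate block. Levels per kilobase used merged exon lengths. Ratios were tested by exact permutation. The floor for empty groups was 3 counts per library, and profiles of log2 CPM used a prior count of 2. Named list genes were the up to 6 with the largest absolute log2 fold change among those with a mean of at least 50 counts, besides the members, the related cytokines, the flanking and overlapping genes and the 2 nearest profiles of each member. A gene that this rule names for Csf3r is not reported here. Further genes named (Cebpa, Irf8, Spi1 and the single markers) were chosen after their values were seen. The members and lists were chosen with earlier results of these data known, so their counts of called genes are no independent support.

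In the labels each library has a batch number equal to its replicate number, shared between the groups, so a paired fit was run beside the unpaired one. The study's methods name DESeq2 for pairwise comparisons and no block. Same-numbered libraries deviated together only weakly (correlations -0.01, 0.08 and 0.04).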

Additional observations from a re-analysis of the deposited data

How the results depend on the processing

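The call at the adjusted p depended on the scaling for 3 receptor genes. With library size alone the log2 fold change was -0.053 for Csf1r, 0.036 for Csf2ra and -0.21 for Csf3r, and with upper-quartile scaling it was 0.049 for Csf3r. Of 118 alternative values for the members' fold changes, 114 kept their direction and side of the threshold. Those of Csf2 and Csf3, which could hardly have changed, are among the 114 and carry no weight. The exceptions, 2 reversed and 2 weaker values, were all of receptor genes. With library size alone 1213 of all tested genes were called up and 2964 down, against 1653 and 1624 with TMM. Requiring at least 10 counts in every library left 1 member called up (Csf1), since that filter drops Csf2 and Csf3. Under the replicate block, a paired fit, the values were 3.36 for Csf1 and 0.69 for Csf2rb, and no member's call changed. The log2 difference of the Csf2rb to Csf2rb2 ratio ran from -0.016 to 0.0027 with each library left out, so it has no direction, and the paired sign-flip tests cannot go below p = 0.25 by exact permutation. With the longest transcript as length, 5 of 8 members kept their rank in the control libraries and 6 of 8 after LPS. Depth limits Csf2 and Csf3 only in the controls, where counts of 0 or 1 set no level.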

Other observations

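The replicate 2 library of each group had the highest Csf2ra level, at 107.8 against 94.1 and 92.6 CPM in the control libraries and 145.9 against 125.3 and 128.6 CPM in the LPS libraries. Crlf2, the gene of a cytokine receptor chain that was nearest to Csf2ra in profile, was also highest there, at 58.7 CPM in the control libraries and 74.3 against 66.7 and 66.5 CPM after LPS. Il3ra, the IL-3 receptor alpha chain, stood at 45.0 against 38.1 and 35.7 CPM in the control libraries and at 51.0 against 50.4 and 43.6 CPM after LPS. With the shared number as a block, the SE of the Csf2ra log2 fold change went from 0.06 to 0.03. These genes were picked after their values were seen, and no test was run on the pattern.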
